A study of Caenorhabditis elegans with 2 samples.

Results

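The genes described here encode histone methyltransferases of Caenorhabditis elegans with a SET domain: met-1, met-2, set-1, set-2, set-17, set-25, set-30, set-32, mes-2 and mes-4. They are 10 of 19973 protein-coding genes on the nuclear chromosomes, selected by name from a list drawn up with binding results of these data known, so their peaks are given as a description. Binding of the Max-family transcription factor MXL-3 was profiled by chromatin immunoprecipitation sequencing in 2 biological replicates of whole L4 larvae, aged 48 hours and of both sexes pooled. All larvae were of strain OP745, which carries unc-119 (tm4063) and the transgene wgIs745. The transgene holds mxl-3 joined at its C-terminal end to TY1, EGFP and 3xFLAG tags, and unc-119(+) as rescue. Anti-GFP antibody was used, so the profile is that of the tagged protein in 1 transgenic line. There was no second condition, and whole animals do not show which tissue a signal came from. A summit was counted at a gene from 2000 bp upstream of any transcript start to the gene end. The lists were 30000 peaks per replicate, 30000 pooled peaks and 3935 peaks kept by the authors at a threshold on the irreproducible discovery rate (IDR). Each peak has a signal value from the authors' processing, which orders peaks within its list and ran from 91.1 to 1445 in the IDR list.

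SET-domain enzymes transfer methyl groups to lysines of histones, and the residue methylated decides how the chromatin is read. Methylation of H3K4 and H3K36 is found at active genes, whereas methylation of H3K9 and H3K27 marks silent chromatin. In the worm these enzymes are known for their part in germline development, in silencing of repeats at the nuclear periphery, in X-chromosome dosage compensation and in inheritance of chromatin state between generations. MXL-3 is known as a repressor of lysosomal lipase genes in fed intestine, and Max-family dimers bind the E-box CACGTG.

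MXL-3 peaks past the threshold stood at met-1, set-1, set-2 and set-30, with 1 summit at each. These were 4 of 10 genes (40%, exact 95% interval 12.2 to 73.8%), beside 17.1% of all protein-coding genes, and the interval of the small list spans that background. The strongest was at met-1, with a signal of 1264 and rank 5 of 3935. The others were far lower, at 188 for set-1 (rank 1118), 129 for set-2 (rank 2227) and 110 for set-30 (rank 2893). Neither mes-2, mes-4, set-17 nor any of the H3K9 enzyme genes met-2, set-25 and set-32 had an IDR summit. The gene windows of the list have a median length of 6489 bp and those of all protein-coding genes 4027 bp. Genes with an IDR summit had a median of 4873 bp and genes without had 3910 bp, and the part of window length in the count was not tested.

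**Figure D1:**
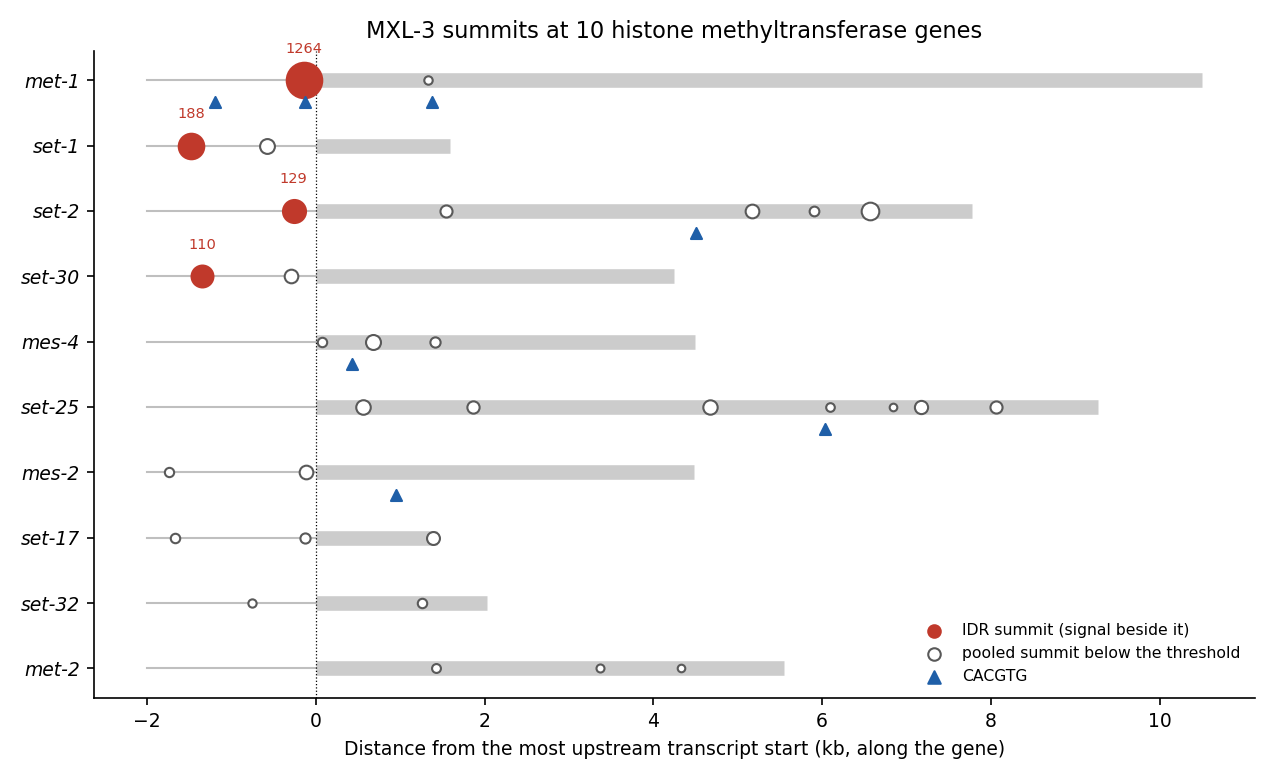
Pooled MXL-3 summits along the 10 genes, in order of their strongest signal. The x axis is the distance in kb from the most upstream transcript start, grey bars are the genes, thin lines the upstream sequence, circle area grows with the logarithm of the signal value, filled circles passed the IDR threshold and triangles are CACGTG hexamers. The 4 filled circles all lie upstream of the genes, and only that of met-1 has a triangle beside it.

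The met-1 gene encodes the worm's Set2-type enzyme, which trimethylates H3K36 along transcribed genes. It is WBGene00016603, on chromosome I from 4254197 to 4264699 (plus strand, WBcel235). Its summit at 4254060 was 137 bp upstream of the first annotated start, in a peak from 4253881 to 4254262, and inside an intron of the upstream gene C43E11.12, which is read on the same strand. No other protein-coding gene had this summit in its promoter window, which runs from 1000 bp upstream to 200 bp downstream of a start. The signal was 624 in replicate 1 and 640 in replicate 2, at ranks 4 and 10 of 30000, with the summit 5 bp from the pooled summit in both. When every protein-coding gene was ordered by its strongest pooled summit, met-1 came 6, with 0.0250% of genes above it. A CACGTG hexamer was centred 8.5 bp from this summit, with CACATG at 41.5 bp and CAATTG at 94.5 bp. The bases within 100 bp of it were 49.8% G or C, above the upper quartile of 48.8% over IDR summits.

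The set-2 gene encodes the SET1-type enzyme that methylates H3K4 within the COMPASS complex. It is WBGene00004782, on chromosome III from 4922427 to 4930204 on the minus strand. Its summit at 4930467 was intergenic, 263 bp upstream of the first start, and lay in the promoter window of set-2 alone. The signal was 48.1 in replicate 1 (rank 3057) and 79.4 in replicate 2 (rank 2016). Both replicates therefore placed it well below the top of the list, with summits 28 and 0 bp from the pooled one.

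The set-1 gene encodes the worm's PR-Set7-type enzyme, which puts a single methyl group on H4K20 and acts in dosage compensation. It is WBGene00004781, on chromosome III from 6450792 to 6452378 on the minus strand. Its summit at 6453854 was intergenic and 1476 bp upstream of set-1, while the start of jhdm-1, which is read the other way, was nearer at 629 bp. By its name and family jhdm-1 is a JmjC-domain histone demethylase gene, and its promoter window alone held this summit. The signal was 68.9 in replicate 1 (rank 1602) and 119.6 in replicate 2 (rank 939). A smaller pooled summit stood nearer to set-1, 576 bp upstream, with a signal of 49.01. It had a match in replicate 1 (36.0, rank 5128) and none within 100 bp in replicate 2.

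The set-30 gene encodes a SMYD-family SET protein. It is WBGene00022499, on X from 4999270 to 5003516 on the plus strand. Its summit at 4997926 was intergenic and 1344 bp upstream of set-30, and it lay 328 bp upstream of ZC8.6, a gene on the other strand that alone had it in its promoter window. The signal was 43.1 in replicate 1 (rank 3669) and 70.7 in replicate 2 (rank 2480). A pooled summit 296 bp upstream of set-30 had a signal of 43.96, with a match in replicate 2 (29.7) and none in replicate 1.

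The IDR summits of set-1, set-2 and set-30 lacked CACGTG within 100 bp, and their sequences are printed to show what stood there instead. Each line gives 201 bases centred on the pooled summit, from RefSeq WBcel235, 5′ to 3′ on the strand of the gene. Capitals mark any E-box of the form CANNTG and any run of GAGAGAGA or its complement TCTCTCTC. They lie at chrIII:6453754-6453954 for set-1, chrIII:4930367-4930567 for set-2 and chrX:4997826-4998026 for set-30.
set-1: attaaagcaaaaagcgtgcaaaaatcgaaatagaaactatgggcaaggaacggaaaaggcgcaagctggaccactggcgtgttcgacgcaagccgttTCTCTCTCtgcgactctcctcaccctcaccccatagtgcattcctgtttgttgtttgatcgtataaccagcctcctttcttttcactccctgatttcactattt
set-2: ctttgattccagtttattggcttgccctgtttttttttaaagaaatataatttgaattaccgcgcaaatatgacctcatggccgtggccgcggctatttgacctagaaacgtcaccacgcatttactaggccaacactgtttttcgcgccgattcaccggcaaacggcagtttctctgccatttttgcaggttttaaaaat
set-30: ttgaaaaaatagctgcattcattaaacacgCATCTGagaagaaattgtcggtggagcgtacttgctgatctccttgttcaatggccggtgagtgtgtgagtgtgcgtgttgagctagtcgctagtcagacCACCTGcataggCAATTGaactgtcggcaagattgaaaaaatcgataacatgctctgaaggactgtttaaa
The set-1 summit held no E-box of any class but had the repeat TCTCTCTC at its centre. The set-2 summit held neither an E-box nor the repeat. The set-30 summit held 3 E-boxes, with the CACCTG class centred at 32.5 bp, CAATTG at 44.5 bp and CAGATG, printed as its complement, at 67.5 bp.

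CACGTG was thus at 1 of the 4 IDR summits of these genes (25%, exact 95% interval 0.631 to 80.6%), beside 15.9% of all 3935 IDR summits and 6.78% of the 26065 pooled summits outside the IDR list. At least 1 E-box of the form CANNTG was present at 67.2% of all IDR summits and at 65.5% of the weaker summits, so an E-box of some class is common in windows of this length. GAGAGAGA or its complement was present at 12.4% of IDR summits and 3.17% of the weaker ones. Base composition within 100 bp was 46.3% G or C at set-1, 42.8% at set-2 and 43.8% at set-30, where the median over IDR summits was 44.8%.

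All 4 IDR summits had a match within 100 bp in both replicate lists, beside 96.4% of IDR summits in general, which the authors had chosen for reproducibility. The order met-1, set-1, set-2, set-30 was the same in replicate 1 and in replicate 2. The ratio of the replicate 2 to the replicate 1 signal was 1.03 at met-1, 1.73 at set-1, 1.65 at set-2 and 1.64 at set-30. Over the 3795 matched IDR summits the median ratio was 1.32, with quartiles of 1.09 and 1.63. The ratio at met-1 was therefore below the lower quartile and those of the other 3 genes were above the upper quartile. The scale of the signal value is not defined in the sources used here, so the ratio is not read as a difference in binding.

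**Figure D2:**
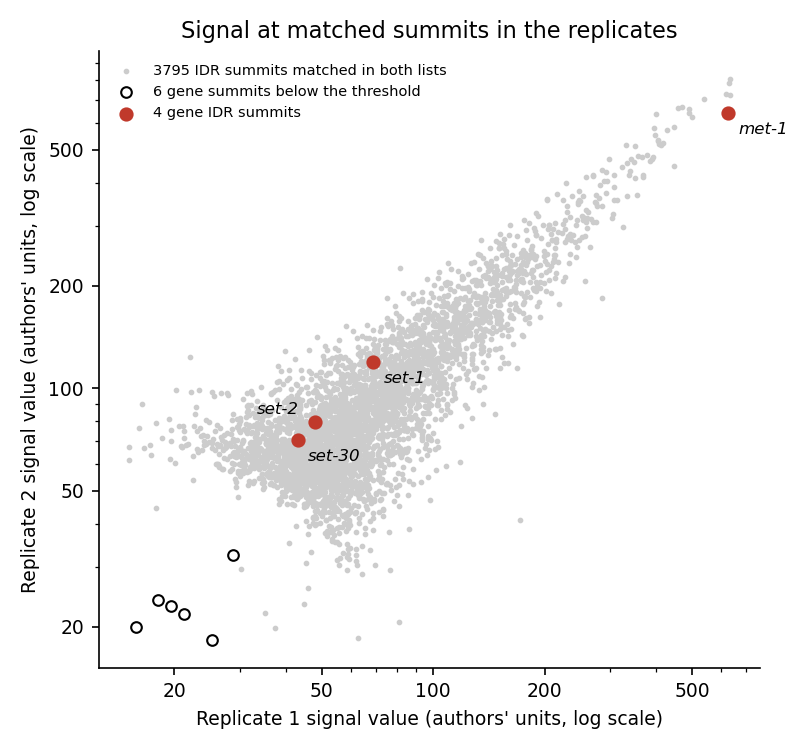
Signal value of matched summits in replicate 1 (x axis) and replicate 2 (y axis), both in the authors' units on log scales, with each point a summit. Grey points are the 3795 IDR summits matched in both lists, filled red points the 4 at the histone methyltransferase genes and open points the 6 weaker summits of these genes with a match in both. The met-1 point lies at the top end at 624 and 640, and the other 3 red points lie within the grey cloud.

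Only met-1 and set-2 had an IDR summit in their own promoter window, 2 of 10 genes (20%, exact 95% interval 2.52 to 55.6%), beside 11.3% of all protein-coding genes. Of the 4 IDR summits, those of met-1 and set-2 were also the ones for which the gene itself had the nearest start, as was so for 70.4% of the 3411 protein-coding genes with an IDR summit. Over the 71376 bp of the 10 windows the density was 56.04 IDR summits per Mb, beside 39.2 per Mb of the nuclear genome. The first value rests on 4 summits and has no interval, and the genome includes sequence outside gene windows. A difference in density is therefore not shown.

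The remaining 6 genes fell below the threshold in the pooled list, where each had at least 1 summit, as did 66.9% of all protein-coding genes. The strongest was 49.6 at mes-4, which encodes the NSD-type H3K36 enzyme that maintains the mark on germline genes, and 38.9% of genes had a stronger summit. It lay in an intron, 678 bp downstream of the start, and had a match in replicate 1 (19.9) and none in replicate 2. The threshold thus fell between set-30, at 110, and mes-4, at 49.6, and the lowest signal in the IDR list was 91.1.

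The gene mes-2 encodes the Enhancer of zeste homologue, the H3K27 enzyme of the worm's Polycomb repressive complex. Its strongest pooled summit had a signal of 44.2, 119 bp upstream of its start, with no match within 100 bp in either replicate. The gene set-17 encodes a PRDM-type H3K4 enzyme known from sperm development, and its strongest summit (41.5) was in its 3′ UTR, with a match in replicate 1 (23.6) and none in replicate 2.

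The H3K9 enzyme genes had only weak summits, in a pooled list with a lowest signal of 29.3 and a median of 43.9. Their windows also differ in length, at 11267 bp for set-25, 7549 bp for met-2 and 4032 bp for set-32. Whether the genes differ in binding was not tested. The gene set-25, whose product trimethylates H3K9, had 7 pooled summits over a window of 11267 bp, with signals from 29.6 to 47.6. Of these, 2 had a match in both replicates, at signals of 21.2 and 21.8 for one and 25.3 and 18.3 for the other. The former was 8057 bp from the start of set-25 and 688 bp upstream of F56A8.8, in the promoter window of that gene. The summits of 42.5 and 29.6 were in coding sequence of F56A8.8, which lies inside set-25. The gene met-2, for the SETDB1-type enzyme that acts before SET-25, had 3 summits of 29.5 to 31.5, all in coding sequence, and its window held 2 summits in replicate 1 and 0 in replicate 2. The gene set-32, whose product acts with nuclear RNA interference, had 2 summits of 30.5 and 32.5, each with a match in a single replicate. That of 30.5 was in coding sequence of the neighbouring gene mina-1. In the order of all protein-coding genes 41.2% were above set-25, 62.4% above set-32 and 63.8% above met-2, so set-25 stood above mes-2 (45.8%) and set-17 (49.7%). Among the 6 genes without an IDR summit the order by strongest signal changed between the replicates. The gene set-25 came first in both, while mes-2 came second in replicate 1 and set-17 second in replicate 2. The replicate 1 values were close, at 25.3 for set-25, 24.9 for mes-2, 24.3 for set-32 and 23.6 for set-17. The mes-2 value came from a summit without a match in the pooled list. The set-32 value was also not that of the summit matched to its pooled summit of 32.5, which was 19.7. The gene mes-4 was last in replicate 1 at 19.9.

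**Figure D3:**
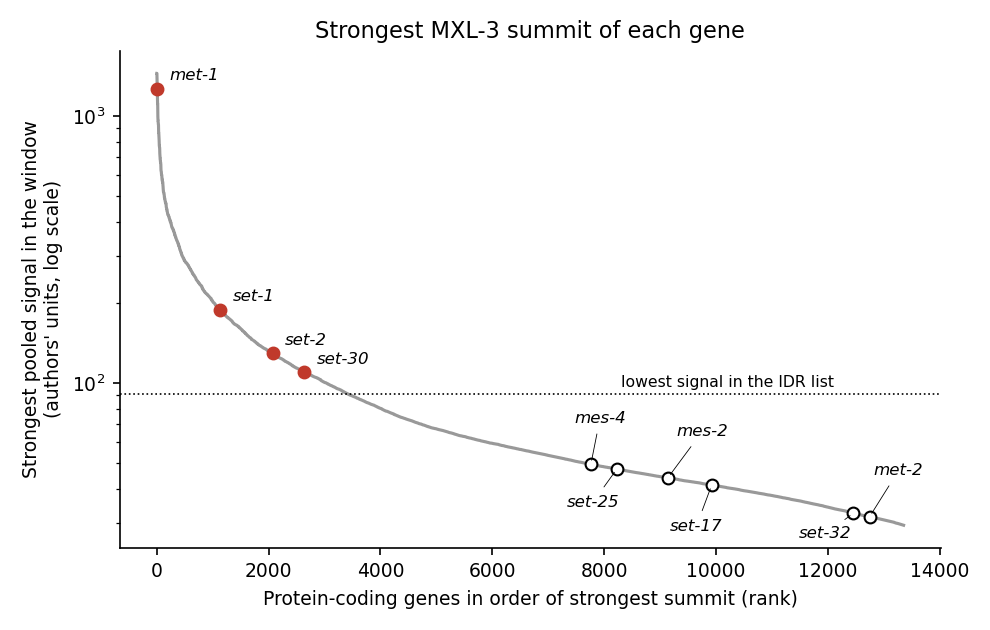
Strongest pooled signal value in the window of each protein-coding gene with a pooled summit (grey line, log scale), in order of rank. Circles mark the 10 histone methyltransferase genes, filled where the summit passed the IDR threshold, and the dotted line is the lowest signal in the IDR list, 91.1. Met-1 is at rank 6, set-1, set-2 and set-30 are between ranks 1127 and 2630, and the other 6 are between ranks 7762 and 12746.

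In all, the 10 genes had 27 pooled summits outside the IDR list, with signals from 29.5 to 65.2 and a median of 34.2. Both replicates had a match for 6 of these (22.2%, exact 95% interval 8.62 to 42.3%), a single replicate for 17 and neither for 4, while 36.1% of all weaker pooled summits had a match in both. The strongest of them lay in coding sequence of set-2, 2466 bp downstream of the nearest set-2 start. The start of mmab-1 was nearer, at 1520 bp. This summit had a signal of 65.2 (rank 6833), with 28.8 in replicate 1 and 32.5 in replicate 2, and a CAAGTG centred at 7.5 bp. Coding sequence held 18 of the 27 (66.7%, 46.04 to 83.5%), where coding sequence made up 46.3% of the bases of the windows and held 38.6% of all weaker pooled summits. All 4 IDR summits of the genes lay outside coding sequence, which held 3.66% of IDR summits in general.

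Most CACGTG hexamers in the windows of these genes had no IDR summit within 100 bp, as was so over all gene windows. The windows held 7 in all, at met-1, set-2, set-25, mes-2 and mes-4, and 5 of 10 genes having one is near the 52.2% of all protein-coding genes. The hexamer upstream of met-1 was the only 1 of the 7 with an IDR summit within 100 bp, and over all gene windows 3.68% of 15088 hexamers had one. The gene met-1 held 2 further hexamers. One was 1190 bp upstream in coding sequence of cogc-5, with no pooled summit nearer than 1053 bp. The other was in an intron, 46 bp from a pooled summit of signal 30.8. That summit had a match in replicate 2 (23.2), 1 bp from the hexamer, and none in replicate 1. The hexamer in coding sequence of set-25 was 63 bp from a pooled summit of signal 31.1, which had a match in replicate 2 alone. Those of set-2, mes-2 and mes-4 were 669, 1064 and 249 bp from the nearest pooled summit.

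The hexamers at the other 4 genes, none with an IDR summit within 100 bp, are printed with 15 bases on each side, from RefSeq WBcel235, 5′ to 3′ on the strand of the gene, to show the sequence around each core. Capitals mark CACGTG. They lie at chrIII:4925683-4925718 for set-2, chrIII:13287043-13287078 for set-25, chrII:14384901-14384936 for mes-2 and chrV:13437099-13437134 for mes-4. That of mes-2 is in an intron and the others are in coding sequence.
set-2: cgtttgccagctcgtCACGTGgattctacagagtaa
set-25: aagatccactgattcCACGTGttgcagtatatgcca
mes-2: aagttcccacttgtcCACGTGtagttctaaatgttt
mes-4: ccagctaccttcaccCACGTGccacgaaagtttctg

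Other genes of histone methylation were counted the same way, from lists of gene names grouped by assigned function. Of 26 other SET-domain genes 8 had an IDR summit in the gene window (30.8%, 14.3 to 51.8%), beside 17.1% of all protein-coding genes. The strongest were set-4, for the enzyme that adds further methyl groups to H4K20, with a signal of 469.7 at 274 bp upstream, and set-16, for the MLL-type H3K4 enzyme, with 443 at 181 bp upstream. They were followed by lin-59, an ASH1-type gene, with 351 at 591 bp upstream, and set-21 with 312 at 186 bp upstream. The start of drr-2 was nearer than that of set-16 and the start of rpl-7A, a ribosomal protein gene, nearer than that of set-21. At each of these 4 genes the signal exceeded that of set-1, set-2 and set-30 and was below that of met-1.

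Among genes listed as histone demethylases, 6 of 13 had an IDR summit (46.2%, 19.2 to 74.9%), beside 17.1% of all protein-coding genes. The activity of each product, that of jmjd-4 among them, was not checked. That background lies below the interval, but the interval rests on all 6 genes, jmjd-4 included. The list was also chosen with results of these data known. Neither the difference nor the part of window length in it was tested. In their own promoter window 4 of the 13 had an IDR summit, beside 11.3% of all protein-coding genes. The gene jhdm-1 was not in this list. The strongest were rbr-2, for the KDM5-type H3K4 demethylase, with 303 at 695 bp upstream, and jmjd-1.2, for the PHF8-type enzyme, with 208 at 455 bp upstream, where F29B9.11 was nearer. Next came jmjd-2, for the KDM4-type enzyme, with 189 at 1118 bp upstream, and jmjd-4 with 166 at 112 bp upstream. Of 11 partners of the complexes, among them mes-3 and mes-6, which act with mes-2, only rbbp-5 of COMPASS had one (104, 191 bp upstream, with tpp-2 nearer). Of 7 readers of histone methylation cec-4, which tethers H3K9-methylated chromatin to the nuclear envelope, had a summit of 239 at 1639 bp upstream, and cec-1 one of 182 at 1082 bp upstream. None of 9 histone methyltransferase genes without a SET domain, the dot-1 and prmt families, had one. The intervals of the 10 genes and of each of these lists overlap. Those of the other SET-domain genes, partners, readers and genes without a SET domain (0 to 33.6%) span the 17.1% of all protein-coding genes.

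**Figure D4:**
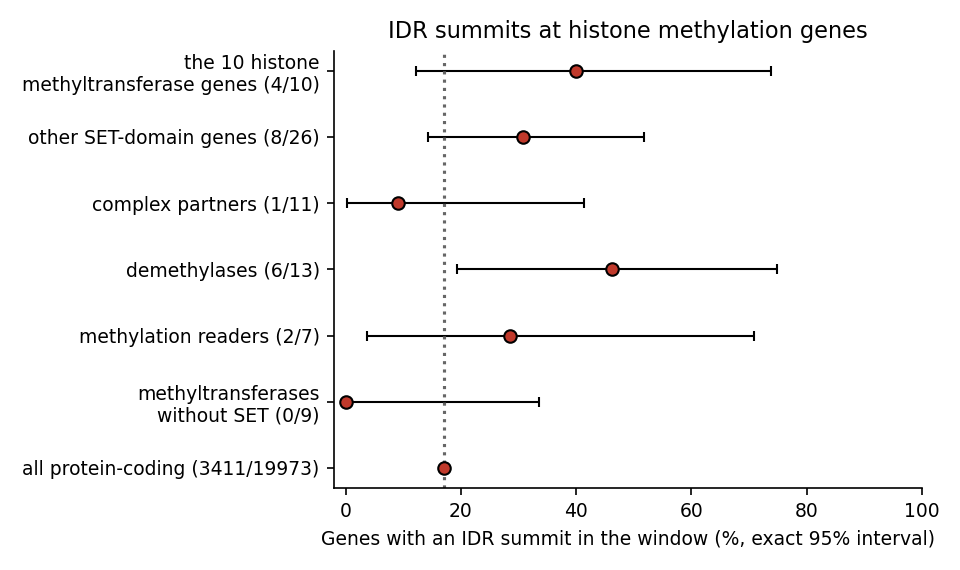
Share of genes with an IDR summit from 2000 bp upstream of any start to the gene end, in percent, for the 10 histone methyltransferase genes, 5 related lists and all protein-coding genes, with the count beside each name. Bars are exact 95% intervals over genes, and the dotted line is the 17.1% of all protein-coding genes. The intervals of the lists overlap each other.

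None of the 17 related genes with an IDR summit had CACGTG within 100 bp of the strongest one, beside 15.9% of all IDR summits. A count of 0 of 17 allows a share of up to about 17.6%, taken as 3 counts in place of 0. The 15.9% lies within that limit. Together with the 10 genes, 1 of 21 such summits held CACGTG, that of met-1. Of the 17 summits 16 were intergenic, beside 64.3% over the 3411 protein-coding genes with an IDR summit, each taken at its strongest. For 9 of the 17 the gene itself had the nearest start, beside 70.4% of those 3411.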

How the data were processed

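MXL-3 chromatin immunoprecipitation sequencing was measured in 2 biological replicates of 1 group. The authors deposited peak lists on assembly ce11, which is WBcel235: a list for each replicate and a pooled list (30000 peaks each, background included), and the 3935 peaks that passed an irreproducible discovery rate (IDR) threshold. Per the file listings each was made with a control. The aligner, the peak caller and the strain of that control were not given in the sources used here. The signal value of a peak is the authors' own, on an undefined scale, and carries no error. Depth is unknown, since read counts were not used.

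Positions are 1-based and a summit is the peak start plus the deposited offset. Peak ends lay within the WBcel235 chromosome lengths. Gene models came from Ensembl release 115 and bases from the RefSeq WBcel235 genome. A gene window ran from 2000 bp upstream of any transcript start to the gene end, and a promoter window from 1000 bp upstream to 200 bp downstream of any start. Both strands were searched for motifs up to 100 bp from a summit. Summits within 100 bp were matched between lists. Where annotations overlapped, coding sequence came before UTRs and exons before introns. Shares have exact 95% intervals (Clopper-Pearson), which cover counting error only. The limit given for 0 of 17 summits is instead an approximate one, 3 counts of the total.

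The genes and lists were chosen with earlier results of these data known, so no test was run and counts are described beside those over all genes or summits. The text names the 10 genes, any gene with one of their IDR summits in its promoter window, and up to 4 bound genes of each related list by signal. Neighbouring genes are also named where a described summit or hexamer lay in or near them. Of 67 related names 66 matched a protein-coding gene, and set-33 did not. Alternatives were other upstream distances, promoter windows, motif windows and matching distances, the stronger part of the IDR list, assignment to the nearest start, and each replicate alone, taken as its 3935 highest peaks. The window search was tested on simulated data. Scripts ran under Python 3.11.15 with pandas 2.3.3, numpy 2.4.6, matplotlib 3.10.9 and scipy 1.17.1.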

Additional observations from a re-analysis of the deposited data

How the results depend on the processing

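The upstream distance decided the count of genes with an IDR summit, which was 4 at 2000 and 3000 bp and 2 at 1000 or 500 bp (met-1 and set-2), with 2 summits in place of 4. With the upper 1967 peaks of the IDR list 2 genes were left (met-1 and set-1), also with 2 summits. Promoter summits numbered 2 in the report, 4 with 2000 bp upstream and 1 with the upper 1967 peaks. Without replicate 1 and without replicate 2 the same 4 genes had a summit, with 4 to 4 summits, 2 to 2 in promoter windows, 1 to 1 with CACGTG and 17 to 17 related genes. The other alternatives changed no count of the 10 genes, and related genes numbered 12 at 1000 bp upstream and 13 with the upper 1967 peaks. The window from the outermost start is the same window by construction. The genes set-1 and set-30 have no value for an IDR signal in the promoter window. No paired analysis was possible because there was 1 group. Read depth is unknown, so a gene without an IDR summit is not shown to be unbound.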
